A study of Homo sapiens with 4 samples.

Results

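The transcripts described here are those of MT-CO1, MT-CO2, MT-CO3, MT-ATP6, MT-CYB, MT-ND1, MT-ND2, MT-ND3, MT-ND4 and MT-ND5, which are 10 of the 13 protein-coding genes of the human mitochondrial genome and 10 of the 36601 features in the deposited matrices. They were chosen by name because earlier results of these data showed them lower with PP121, so every PP121 against control value of the 10 genes is a description and carries no test. Nuclei came from stage 1 enteric ganglioids, suspended aggregates of enteric neurons and their precursors grown from H9 (an established human embryonic stem cell line), and their RNA was sequenced nucleus by nucleus in 2 untreated control samples and 2 samples exposed to PP121, a multi-targeted receptor tyrosine kinase inhibitor, at 2 µM from day 15 to day 20. All 4 samples share the same line, the same induction of enteric neural crest and the same GDNF-containing medium, and each carries 1 of 2 replicate numbers. The deposited annotation dates replicate 1 of both groups to day 42 and replicate 2 to day 38, so replicate number and day cannot be told apart, while the study itself gives day 40. The number and the day alone do not show whether same-numbered samples came from 1 differentiation.

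The files held 25306 nuclei, of which 14812 carry a class given by the authors (4283 and 3030 in the control samples, 4587 and 2912 with PP121) and 10494 are marked Filtered. A UMI marks 1 captured RNA molecule, and the named nuclei of a sample summed to between 23348045 and 34123759 UMIs with medians of 6289 to 7071 per nucleus. Enteric neurons held ELAVL3 at 270.1 to 365 UMIs per 1000000 (CPM) and STMN2 at 253 to 346 CPM, and mesenchymal nuclei held COL1A2 at 663 to 981 CPM. Of the 7 listed progenitor markers, VIM, SOX2, HES1, NES, MKI67 and TOP2A had higher medians over samples in both progenitor classes than in neurons, with the proliferation markers closest in progenitor 1 (TOP2A at 29.1 against 23.8 CPM, MKI67 at 9.07 against 5.01 CPM). SOX10, a marker of neural crest progenitors and glia, was not higher in them, at 7.58 CPM in progenitor 1 and 9.80 CPM in progenitor 2 against 10.6 CPM in neurons. The epithelial class, with 9 to 37 nuclei a sample, held EPCAM at only 5.08 to 15.5 CPM against 6.17 to 8.34 CPM in neurons and CDH1 at 3.35 to 45.7 CPM against 0.902 to 1.78 CPM, and it is called by its deposited name only. The erythroid marker HBA1 was at 0 in every neuron sum, and any 2 libraries shared 4 to 15 cell barcodes.

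Mitochondria keep a small circular genome whose transcripts are made, cut and mostly given tails inside the organelle. Its protein genes all encode subunits of the respiratory chain or of ATP synthase. The larger part of each of these complexes is encoded in the nucleus, so the assembled machinery draws on both genomes. Mitochondria lie outside the nucleus, and these transcripts are therefore scarce in nuclear preparations, where their percentage is used as a measure of quality. Because every human cell type in such a culture carries them, no class served as a blank, and the part of free RNA in these values was not tested.

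Each of the 10 genes is a single uninterrupted exon on the plus strand of chrM, between base 3307 (the start of MT-ND1) and base 15887 (the end of MT-CYB) in GRCh38 with the GENCODE v29 annotation. The library kit reads transcripts from their tails, so the last 30 bases of the genes whose values stand apart below are shown 5′ to 3′, with the last codon, or what the genome holds of it, in capitals.
MT-ND1 (chrM:3307-4262): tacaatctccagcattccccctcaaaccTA
MT-ND2 (chrM:4470-5511): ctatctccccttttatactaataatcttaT
MT-ATP6 (chrM:8527-9207): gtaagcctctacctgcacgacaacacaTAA
MT-ND3 (chrM:10059-10404): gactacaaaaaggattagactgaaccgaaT
MT-ND4 (chrM:10760-12137): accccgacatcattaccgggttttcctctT
MT-ND6 (chrM:14149-14673, minus strand): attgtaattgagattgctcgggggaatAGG
MT-ATP6 ends in a whole stop codon, whereas MT-ND1 ends 2 bases into its last codon and MT-ND2, MT-ND3 and MT-ND4 end 1 base into theirs, the stop being completed by the added tail. MT-ND6 is shown because it is the protein gene of the opposite strand and because its values ran the other way. Its printed bases are the annotated end of the gene. Whether its transcript ends there or carries a tail that the kit can read was not tested. MT-ATP6 starts inside MT-ATP8, and the 46 bases they share (chrM:8527-8572) are printed with the first codon of MT-ATP6 and the last codon of MT-ATP8 in capitals.
MT-ATP8 and MT-ATP6: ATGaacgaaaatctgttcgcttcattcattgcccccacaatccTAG
Reads from these shared bases can be counted on either gene. The nuclear genome also holds 394 named copies of mitochondrial genes in this annotation, none of which is among the deposited features, so their reads could be counted on the originals. Over the last 300 bases the closest copy was 99.3% identical for MT-ND1 (MTND1P23, chr1:629062-629433), 99.0% for MT-CO1, 98.7% for MT-ATP6, 97.7% for MT-ND2 and 97.3% for MT-CO2, and it was least alike for MT-CYB (84.8%). How much of any count came from a copy was not tested, and the sources used here do not say whether counting used strand.

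Summed over the 10 genes, named nuclei of the control samples held 10950 and 7398 UMIs, or 0.0321% and 0.0298% of all UMIs, and those of the PP121 samples held 5018 and 3771, or 0.0148% and 0.0162%. Both PP121 samples lay below both control samples, with means of 0.0309% ± 0.00164 and 0.0155% ± 0.000975 (SD, n = 2 each) and a log2 ratio of −1.0. The ratio was −1.12 between the samples of day 42 and −0.88 between those of day 38. In sums over nuclei, fewer nuclei with these transcripts and fewer transcripts per nucleus cannot be told apart. The median percent of ribosomal counts was close in all 4 samples (0.931%, 0.853%, 0.925% and 0.892%), while the summed nuclear noncoding RNAs (MALAT1, NEAT1 and 6 others) lay between 6.44% and 7.03% of UMIs in controls and between 4.72% and 5.35% with PP121. Their part in the lower mitochondrial share was not tested.

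The same order held in the larger classes. Enteric neurons held 0.0351% and 0.0370% in controls against 0.0146% and 0.0191% with PP121 (log2 ratio −1.09), and progenitor 2 nuclei held 0.0319% and 0.0296% against 0.0161% and 0.0121% (−1.13). Progenitor 1 nuclei had lower control shares and a ratio nearer 0, with 0.0238% and 0.0218% against 0.0160% and 0.0145% (−0.59). Nuclei of the class that the authors named unknown held 0.020% and 0.0204% against 0.00630% and 0.0108%. Mesenchymal nuclei did not follow this order: they held 0.0205% and 0.0187% in controls and 0.0135% and 0.0202% with PP121, so the groups overlapped, and replicate 1 of each group had only 40 and 33 such nuclei.

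**Figure D1:**
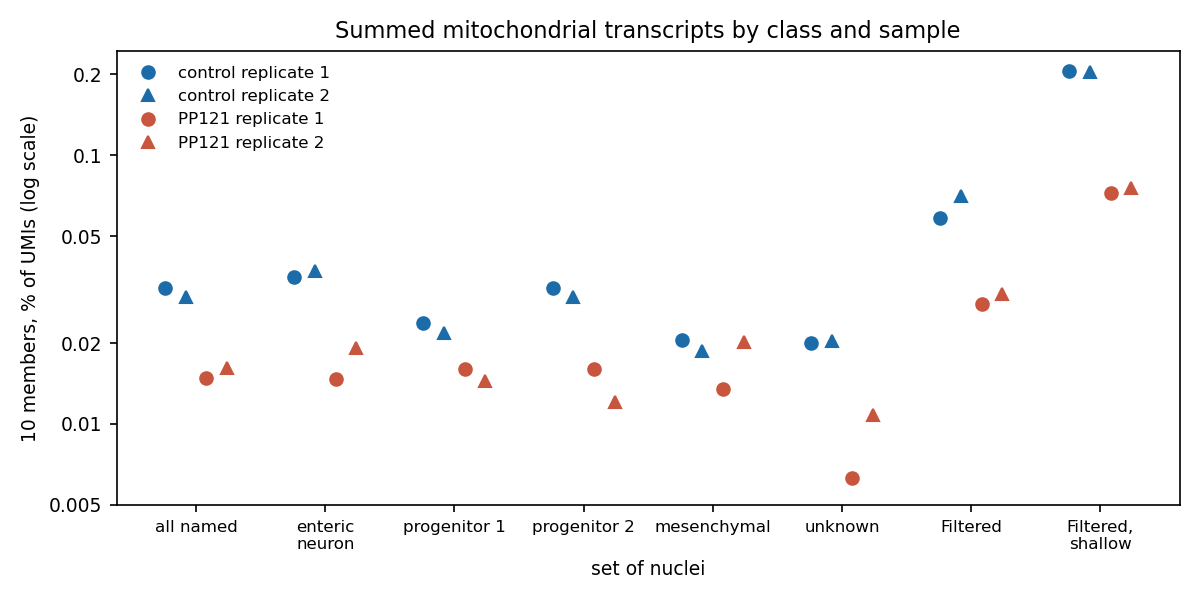
Summed UMIs of the 10 genes as a percentage of all UMIs (log scale) for each set of nuclei, with 1 point per sample, blue for control and red for PP121, circles for replicate 1 (day 42) and triangles for replicate 2 (day 38). Red points lie below blue points in every set but the mesenchymal one, and Filtered nuclei at or under the study's lower limit of features lie highest, at 0.205% and 0.203% in controls against 0.0725% and 0.0754% with PP121.

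The genes are taken by complex. MT-CO1, MT-CO2 and MT-CO3 encode the catalytic core of cytochrome c oxidase (complex IV). In named nuclei MT-CO1 was counted at 61.7 and 58.4 CPM in controls and 25.4 and 36.7 CPM with PP121, which edgeR fitted as a log2 fold change of −0.93 ± 0.22 (SE). MT-CO2 was at 34.8 and 36.5 CPM against 12.7 and 19.1 CPM (−1.15 ± 0.24). MT-CO3 was at 50.8 and 45.8 CPM against 17 and 29.9 CPM (−1.02 ± 0.29). The PP121 samples were the lower ones for all 3 genes, and for each the gap was wider on day 42, for MT-CO3 a log2 ratio of −1.58 against −0.61 on day 38.

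MT-ATP6, a subunit of the proton channel of ATP synthase (complex V), showed the largest difference of the 10, from 33.2 and 27.2 CPM in controls to 9.10 and 12.5 CPM with PP121 (log2 fold change −1.47 ± 0.23). MT-CYB, the mitochondrially encoded subunit of complex III, was at 22.9 and 24.7 CPM against 8.92 and 13 CPM (−1.11 ± 0.24). In neither gene did the groups overlap.

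The other 5 genes encode membrane subunits of NADH dehydrogenase (complex I). MT-ND3 was at 12.4 and 13.1 CPM in controls and 4.03 and 6.08 CPM with PP121 (−1.32 ± 0.27), and MT-ND4 was at 23.9 and 26.9 CPM against 12.9 and 14.6 CPM (−0.88 ± 0.18). MT-ND5 was at 16.3 and 17.7 CPM against 10.9 and 8.48 CPM (−0.80 ± 0.19). For these 3 genes the replicates of a group lay close together compared with the distance between groups. MT-ND1 was at 35.8 and 25.6 CPM in controls and 25.3 and 12.0 CPM with PP121 (−0.71 ± 0.35), and MT-ND2 was at 29.2 and 21.9 CPM against 21.4 and 9.04 CPM (−0.74 ± 0.39). In both of these genes the higher PP121 sample nearly reached the lower control sample, so the groups were barely separate.

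The genes were also read by class. In enteric neurons MT-ATP6 was at 39.5 and 37.5 CPM in controls and 10.2 and 18 CPM with PP121, a log2 ratio of −1.95 on day 42 and −1.06 on day 38. MT-CO3 was at 54.3 and 59.4 CPM against 16.5 and 39.2 CPM, and MT-CYB was at 26.3 and 31.6 CPM against 8.08 and 14.4 CPM. For these genes PP121 replicate 1 was the lowest sample. For MT-ND1 it was PP121 replicate 2, with 37.9 and 27.7 CPM in controls, 25.6 CPM in PP121 replicate 1 and 9.82 CPM in PP121 replicate 2, and MT-ND2 had the same order (33.7, 23.6, 20.5 and 7.65 CPM).

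In progenitor 2 nuclei the core genes of complexes IV and V were close between replicates. MT-CO1 was at 67.6 and 61.1 CPM in controls and 29.8 and 26.3 CPM with PP121, MT-CO2 at 35.8 and 36.5 CPM against 14.6 and 15.8 CPM, and MT-ATP6 at 32 and 24.4 CPM against 8.96 and 8.03 CPM. MT-ND1 and MT-ND2 overlapped between groups there, since PP121 replicate 1 held 24 CPM of MT-ND1 and 23.7 CPM of MT-ND2 and control replicate 2 held 22 and 18.7 CPM. In progenitor 1 nuclei MT-CO1 was at 42.2 and 40.4 CPM in controls and 23.5 and 33.8 CPM with PP121, and MT-ATP6 at 15.2 and 17.3 CPM against 7.98 and 9.52 CPM. MT-ND1 in progenitor 1 was at 33.6 and 31.1 CPM in controls, 32.6 CPM in PP121 replicate 1 and 11.2 CPM in PP121 replicate 2, so its day 42 samples were level (log2 ratio −0.04) and its day 38 samples were not (−1.48). MT-ND2 split in the same way (27.3, 28.6, 26.6 and 7.55 CPM).

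All 10 genes were lower with PP121 on both days in named nuclei, in enteric neurons, in progenitor 2 nuclei and in Filtered nuclei, which makes 20 of 20 gene and day pairs in each set. In progenitor 1 nuclei 19 of 20 pairs were lower, the exception being MT-ND4 on day 38 (18.1 CPM in the control and 19.4 CPM with PP121). Both PP121 samples lay below both control samples for 10 of 10 genes in named nuclei, where 16.1% of all genes with at least 40 UMIs did so, for 10 of 10 in neurons (25.4% of all genes) and for 9 of 10 in Filtered nuclei (18.2%), where MT-ND2 overlapped. Nothing is read from these counts, since the genes were chosen on this contrast.

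**Figure D2:**
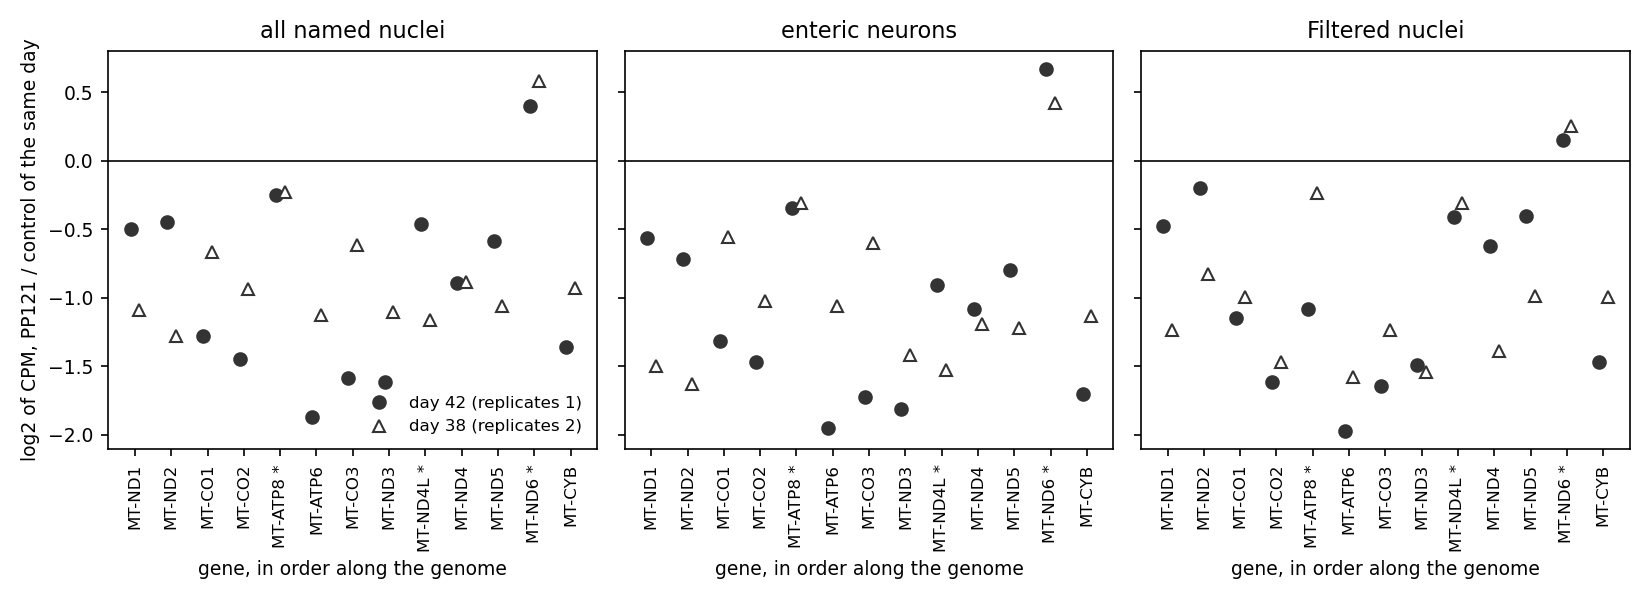
Log2 of the PP121 over the control CPM of the same day for the 13 protein genes in order along the mitochondrial genome, with filled circles for day 42 and open triangles for day 38, in named nuclei, enteric neurons and Filtered nuclei. Asterisks mark the 3 genes outside the chosen 10. Points of the 10 genes lie below 0 on both days, MT-ND6 lies above 0, and MT-ND1 and MT-ND2 are nearer 0 on day 42 than on day 38 while MT-CO1, MT-CO3 and MT-ATP6 are the reverse in named nuclei.

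The fit across all genes gave the background of the contrast. Without a block, edgeR's quasi-likelihood test called 0 of 24123 genes in named nuclei (0%), and likewise 0% in enteric neurons, progenitor 1, progenitor 2 and Filtered nuclei, with 1113, 2549, 621, 1774 and 2391 genes at an unadjusted p under 0.05. DESeq2 called 49, 87, 1, 96 and 136. With the replicate number as a block, edgeR called 6 of the 10 genes lower in named nuclei (0.174% of all genes were called lower), 10 in neurons (6.86%), 1 in progenitor 1 (0.783%), 10 in progenitor 2 (2.32%) and 9 in Filtered nuclei (3.41%). These counts are given beside their background as a description.

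The 3 protein genes outside the chosen 10 had fewer UMIs and did not share 1 pattern. MT-ND6, a complex I subunit, was higher with PP121, at 6.39 and 5.79 CPM in controls and 8.45 and 8.69 CPM with PP121 (log2 fold change 0.51 ± 0.19, adjusted p = 0.93 with edgeR and 0.24 with the replicate block), so the difference did not pass the test. MT-ND4L, also of complex I, was at 5.51 and 4.79 CPM against 4.00 and 2.14 CPM. MT-ATP8 of complex V was at 1.61 and 2.45 CPM against 1.35 and 2.10 CPM, and its groups overlapped.

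Whether the difference was equal over genes was asked of the make-up of the mitochondrial UMIs, since an equal change of all genes leaves each gene's share of the 13 as it was. MT-ATP6 took 9.92% and 8.77% of these UMIs in control named nuclei and 5.63% and 7.17% with PP121, and MT-ND3 took 3.70% and 4.21% against 2.50% and 3.49%. These were the only 2 of the 10 genes whose shares did not overlap between groups, and both were lower. The exact two-sided permutation test gave p = 0.33 for each, the smallest value that 2 against 2 samples allow, and 1.0 after adjustment over the 10 genes. A gene whose groups do not differ separates with that same probability, so nothing is read from the number of genes that did. MT-ND6 took 1.91% and 1.86% in controls and 5.23% and 4.98% with PP121, and MT-ATP8 also did not overlap, at 0.482% and 0.790% against 0.838% and 1.20%. Most of these UMIs belong to the 10 genes chosen as lower, so the share of a gene outside them rises unless it falls as much. In CPM, MT-ATP8 was lower with PP121 on both days and its groups overlapped, so nothing is read from its share. MT-ND6 had log2 ratios in CPM of 0.40 on day 42 and 0.59 on day 38. MT-ND1 and MT-ND2 split by sample in another way: MT-ND1 took 10.7% and 8.24% in controls, 15.7% in PP121 replicate 1 and 6.90% in PP121 replicate 2, and MT-ND2 took 8.74%, 7.04%, 13.3% and 5.18% in the same order. The highest and the lowest share of both genes were thus in the 2 PP121 samples. Which of the 10 genes separated changed with the set, although MT-ATP6 did so in neurons and in both progenitor classes. MT-ND3 overlapped in progenitor 1 and progenitor 2, MT-CYB separated in neurons, and MT-CO1 and MT-CO3 separated in progenitor 2. Without the 1% of named nuclei richest in these transcripts MT-ND4 separated upward, at 7.20% and 7.69% in controls against 7.98% and 9.06% with PP121.

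**Figure D3:**
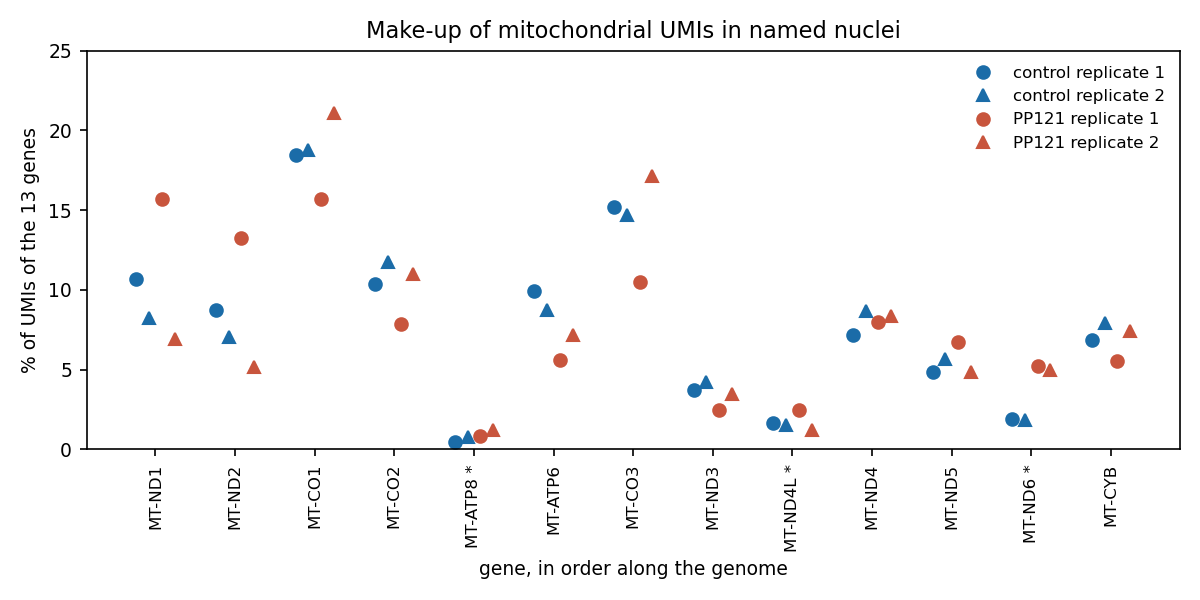
Share of each of the 13 protein genes in their summed UMIs in named nuclei, in percent, with 1 point per sample, coloured by group and shaped by replicate, in order along the genome and with asterisks on the 3 genes outside the chosen 10. PP121 replicate 1 stands apart at MT-ND1 (15.7%) and MT-ND2 (13.3%). Both PP121 samples lie above both controls at MT-ND6 (5.23% and 4.98%), a share that also rises when the 10 genes fall.

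The replicate numbers themselves were compared with treatment as a term, a contrast that did not choose the genes. In named nuclei replicate 2 was lower than replicate 1 in MT-ND1 (log2 fold change −0.69 ± 0.17, adjusted p = 0.048 with edgeR), which was the 1 gene of the 10 called, where 5.52% of all genes were called. MT-ND2 was at −0.73 ± 0.20 (adjusted p = 0.070). In enteric neurons 6 of the 10 were called, where 9.49% of all genes were. MT-ND1 (−0.78 ± 0.16, adjusted p = 0.0016 with edgeR) and MT-ND2 (−0.81 ± 0.17, 0.00146) were lower in replicate 2. MT-CO1 (0.55 ± 0.13), MT-CO2 (0.67 ± 0.13), MT-CO3 (0.69 ± 0.16) and MT-CYB (0.55 ± 0.16) were higher, with adjusted p of 0.00751, 0.00124, 0.00487 and 0.0221 in that order. Without the 1% of nuclei richest in these transcripts MT-ND1 and MT-ND2 were the genes called in both sets, at −1.01 and −0.94 in named nuclei and −1.05 and −0.99 in neurons. MT-ND2 gained its call in named nuclei there, and the 4 genes higher in replicate 2 lost theirs in neurons. DESeq2 called none of the 10 in either set.

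Whether the difference was equal over classes was tested with the class by treatment terms of 1 fit over neurons, progenitor 1 and progenitor 2, with the sample as a block. For progenitor 1 against neurons all 10 terms were above 0, from 0.11 to 0.90 on the log2 scale with a median of 0.41, which is the direction of a smaller PP121 difference in progenitor 1. Without the richest 1% of nuclei they ran from −0.27 to 0.52 with a median of 0.14. The median was 0.54 without control replicate 1, 0.45 without control replicate 2, 0.25 without PP121 replicate 1 and 0.61 without PP121 replicate 2, and in the first 3 of these fits the lowest term was below 0 (−0.20, −0.27 and −0.02). None passed the adjustment: MT-ND4 had the largest term (0.90 ± 0.28, adjusted p = 0.388 with edgeR), followed by MT-ND3 (0.74 ± 0.36, 0.59) and MT-CYB (0.69 ± 0.31, 0.563). For progenitor 2 against neurons the terms ran from −0.30 to 0.38 with a median of 0.04, a median that became −0.29 without the richest 1%, −0.17 without PP121 replicate 1 and 0.37 without PP121 replicate 2. Over both terms together edgeR called 0 of the 10 genes and 0 of 20664 genes (0%), 1 of the 10 and 1509 genes had an unadjusted p under 0.05, and DESeq2 called 0 of the 10 for either term. With these errors, a term of the size seen for MT-ND4 did not pass, so unequal differences of that size were not detectable, and equality is not shown either.

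With the mesenchymal and unknown classes added, the mesenchymal terms were from 0.50 to 1.80 with a median of 1.13, and 0 of the 10 genes passed the adjustment. On day 42 the mesenchymal sums were small, with MT-CO1 at 14 UMIs in the control and 7 with PP121. The mesenchymal value rested on few nuclei. In PP121 replicate 2 the 5 nuclei with the highest share held 44.7% of the class's 700 mitochondrial UMIs, 1 of them alone holding 222. Without the richest 1% in each sample the mesenchymal log2 ratio went from −0.22 to −0.43 and the groups no longer overlapped.

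These transcripts were unevenly spread over nuclei in every sample. Named nuclei without a single UMI of the 10 genes made up 53.6% and 53.7% in controls and 64.6% and 63.8% with PP121, whereas Poisson counts in proportion to each nucleus's depth would leave 14.8%, 16.1%, 39.4% and 34.3%. The richest 1% of named nuclei by share (43, 31, 46 and 30 nuclei) held 30.9% and 40.1% of the mitochondrial UMIs in controls and 20.2% and 32.8% with PP121. In neurons of control replicate 2, 13 nuclei held 51.3%. Nuclei were ranked by share of their own UMIs, a ratio that reaches high values more readily in shallow nuclei. The rich nuclei were shallower than the rest in each sample, with medians of 3854 to 5983 against 6328 to 7075 UMIs. Their median percent of ribosomal counts was higher in each sample, 1.07 to 1.36% against 0.851 to 0.931%. Neurons made up 69.8%, 45.2%, 43.5% and 46.7% of them, against 53.7%, 41.3%, 44.3% and 33.5% of all named nuclei.

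Leaving these nuclei out narrowed the difference without removing it. The log2 ratio of the summed share was −0.82 in named nuclei, −0.78 in neurons, −0.55 in progenitor 1, −1.0 in progenitor 2 and −1.10 in Filtered nuclei. The ratios of neurons and progenitor 1, −1.09 and −0.59 on all nuclei, were thus closer together. MT-ND6 took 0.408% and 0.231% of the mitochondrial UMIs of rich nuclei in controls against 2.56% and 2.92% in the others. With PP121 it took 1.05% and 0.635% against 6.22% and 6.93%. Rich nuclei were picked by the summed share of the chosen genes, and MT-ND6 is not among these genes. Its lower share in rich nuclei is therefore partly set by that choice, and nothing is read from it.

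**Figure D4:**
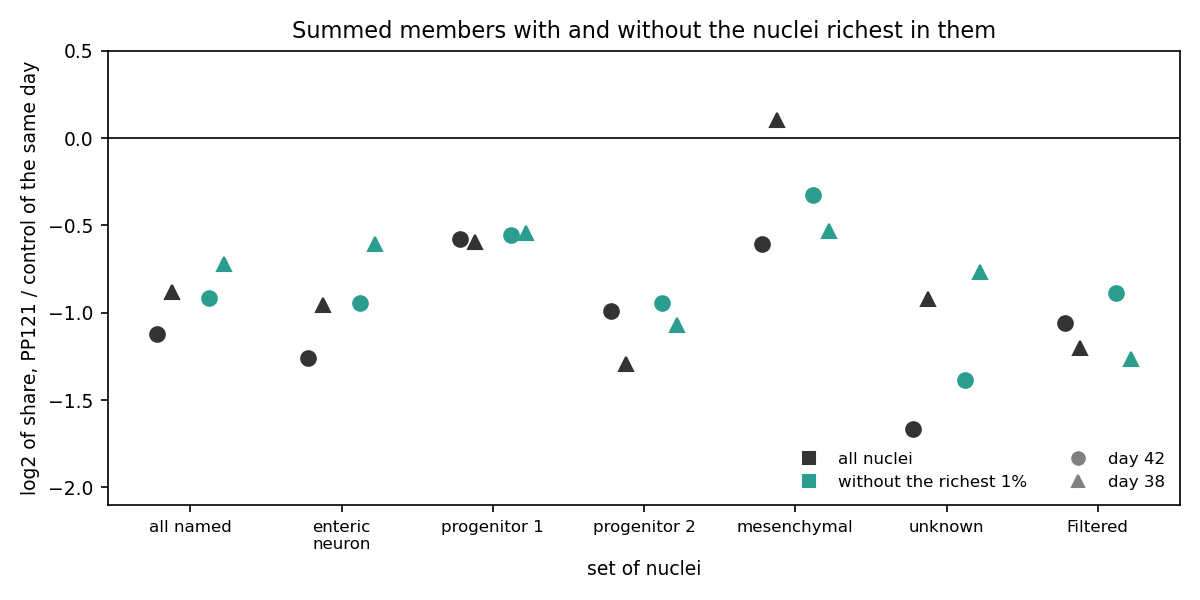
Log2 of the PP121 over the control share of the 10 summed genes within day 42 (circles) and day 38 (triangles), on all nuclei (black) and without the 1% of nuclei richest in them in each sample (green). Removal moves neurons from −1.26 and −0.95 to −0.95 and −0.60, leaves progenitor 1 at −0.56 and −0.54 and takes the mesenchymal day 38 value from 0.11 to −0.53.

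To compare nuclei at equal depth, each was thinned to 2000 UMIs and shallower ones were left out (18 to 21 nuclei in controls, 12 to 38 with PP121). At least 1 UMI of the 10 genes was then seen in 24.8% and 23.0% of control nuclei (exact 95% intervals 23.5 to 26.2% and 21.5 to 24.6%, counting error only) and in 17.6% and 18.3% of PP121 nuclei (16.5 to 18.7% and 16.9 to 19.7%). Unthinned shares were 46.4%, 46.3%, 35.4% and 36.2%. The difference in group means was −6.0 percentage points over named nuclei, −3.97 in neurons, −6.12 in progenitor 1 and −8.39 in progenitor 2. At 4000 UMIs it was −9.63 in neurons, −4.16 in progenitor 1 and −8.05 in progenitor 2, so the order of the 3 classes changed with the depth and none is read from it. With 2 samples a group, no exact test of these shares could go below 0.33.

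Levels between classes were tested within samples, a contrast independent of the choice of genes, against enteric neurons. The authors regressed the mitochondrial percentage of each nucleus, among other variables, out of the data before they clustered, and whether the 10 genes were among the variable features used is not stated. In progenitor 1, 6 of the 10 genes were lower (28.9% of all genes were called lower): MT-ATP6 (log2 −0.98 ± 0.20, adjusted p = 0.000452 with edgeR), MT-CO2 (−0.76 ± 0.24), MT-ND3 (−0.67 ± 0.22), MT-CO3 (−0.66 ± 0.20), MT-CYB (−0.62 ± 0.21) and MT-CO1 (−0.55 ± 0.18). MT-ND1 (0.13 ± 0.27), MT-ND2 (0.09 ± 0.30), MT-ND4 (−0.18 ± 0.21) and MT-ND5 (0.02 ± 0.17) did not pass. Every complex IV gene, the complex V gene and the complex III gene were therefore among those lower, and 4 of the 5 complex I genes were not.

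In progenitor 2 only MT-ATP6 was called lower (−0.56 ± 0.19, adjusted p = 0.0269 with edgeR), where 16.9% of all genes were. In mesenchymal nuclei MT-ATP6 (−0.85 ± 0.25) and MT-CO1 (−0.56 ± 0.21) were lower, where 20.5% were. In the unknown class 7 of 10 were lower, where 17.5% were, led by MT-ND2 (−1.58 ± 0.46) and MT-ATP6 (−1.55 ± 0.28), while MT-ND6 was higher there (0.89 ± 0.23, adjusted p = 0.00366) and in progenitor 2 (0.51 ± 0.18, 0.0328). MT-ATP6 was the gene called in all 4 classes. The calls in progenitor 1 depended on the richest nuclei: without the richest 1%, 1 of the 10 was lower in progenitor 1, 0 in progenitor 2 and mesenchymal nuclei and 5 in the unknown class, and with control replicate 2 left out 1 was lower in progenitor 1.

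**Figure D5:**
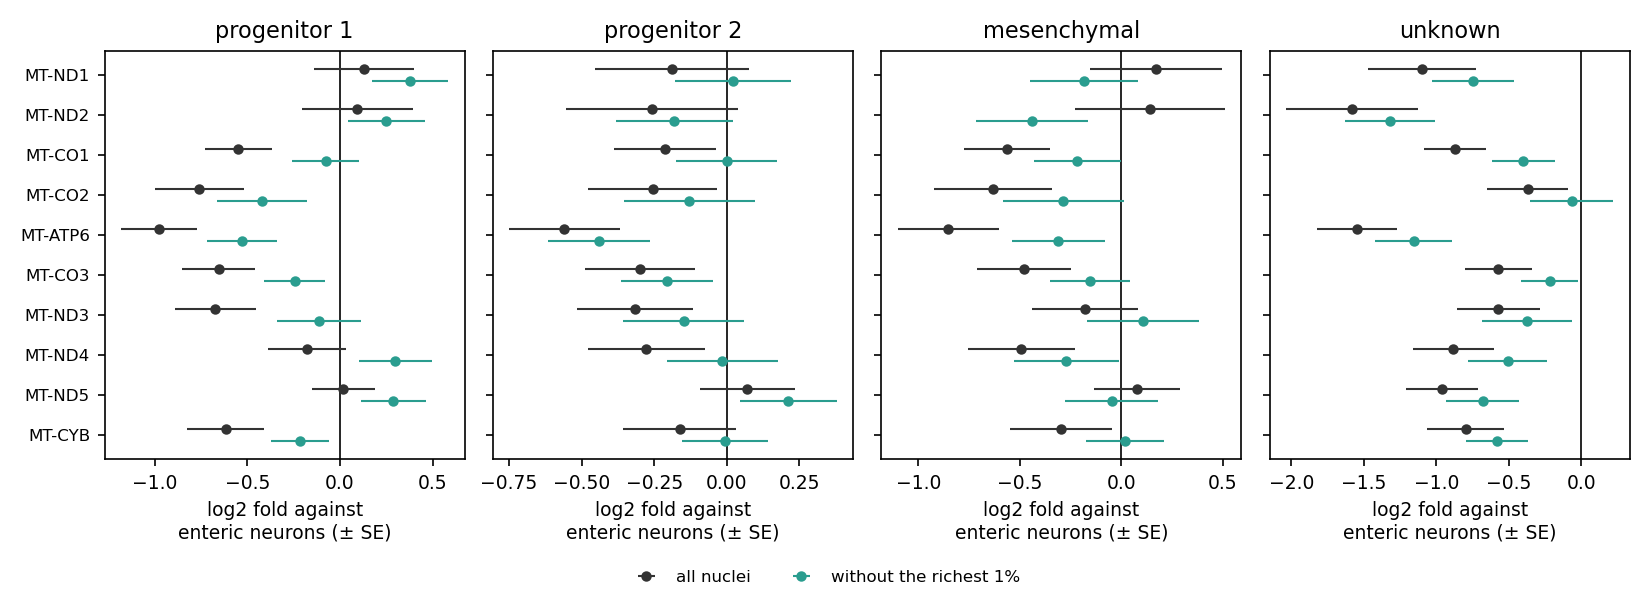
Log2 fold change of each of the 10 genes in progenitor 1, progenitor 2, mesenchymal and unknown nuclei against enteric neurons, with bars of 1 SE, in order along the genome, on all nuclei (black) and without the richest 1% (green). Black points of MT-ATP6 lie left of 0 in all 4 panels (−0.98, −0.56, −0.85 and −1.55), and the median of the 10 genes moves from −0.58, −0.26, −0.39 and −0.88 to −0.09, −0.07, −0.20 and −0.54 without the richest nuclei.

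Filtered nuclei are those that the study removed, with a lower limit on features and upper limits of 7000 features, 40000 UMIs and 10% mitochondrial counts. Only 11, 5, 2 and 1 of them (in the order of control replicates 1 and 2 and PP121 replicates 1 and 2) reached 10% mitochondrial counts, and each of these was also at or under the lower limit of features, so none fell to the limit of 10% alone. The study also removed clusters judged of low quality, and high mitochondrial and ribosomal percentages were among its criteria. Filtered and named nuclei are therefore not independent of these transcripts or of those of ribosomal protein genes. The 10 genes made up 0.0581% and 0.0703% of Filtered UMIs in controls and 0.0279% and 0.0305% with PP121. Within samples all 10 were higher in Filtered than in named nuclei, by 0.67 to 1.18 on the log2 scale with a median of 1.06, where 6.80% of all genes were called higher. MT-ND4 (1.18 ± 0.09) and MT-ND3 (1.16 ± 0.11) had the largest differences and MT-ND1 (0.67 ± 0.07) the smallest. The cytosolic ribosomal protein genes, which are encoded in the nucleus and translated in the cytoplasm, moved with them: 78 of 78 were higher in Filtered nuclei, with a median of 1.15.

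Most Filtered nuclei were shallow (3602, 1475, 2240 and 1917 at or under the lower limit of features, median UMIs from 624 to 767). In these the share reached 0.205% and 0.203% in controls against 0.0725% and 0.0754% with PP121, a log2 ratio of −1.47. MT-CO2 was at 239 and 246 CPM in these shallow nuclei of the controls and at 55 and 69.4 CPM with PP121, and MT-ATP6 at 206 and 161 CPM against 33 and 49.7 CPM. MT-ND2 was the 1 gene of the 10 whose groups overlapped there (177 and 129.6 CPM against 131 and 61.9 CPM). MT-ND6 was at 29 and 23.6 CPM against 17.4 and 25.4 CPM in shallow nuclei, and its groups overlapped, unlike in named nuclei. Filtered nuclei within all limits occurred only in the control samples (372 and 196), with shares of 0.0441% and 0.0348% and a median percent of ribosomal counts of 4.45% and 4.47%. Their shares rested on few nuclei: 4 of the 372 held 64.0% of the mitochondrial UMIs, and 2 of the 196 held 55.6%. Whether the PP121 difference was equal in Filtered and named nuclei was tested with the interaction term. It called 0 of the 10 genes (0.585% of all genes were called, and DESeq2 also called 0 of the 10). The terms ran from −0.43 to 0.24 with a median of −0.18. The terms of MT-CO2 (−0.43 ± 0.14, adjusted p = 0.303 with edgeR) and MT-CO3 (−0.42 ± 0.16, 0.403) were the lowest, the direction of a larger difference in Filtered nuclei. The median term was −0.42 without control replicate 1, −0.0048 without control replicate 2 and −0.36 without the richest 1%. Of the cytosolic ribosomal protein genes, 59 of 78 were called lower in that same test (median −0.69), where 0.555% of all genes were. The study gives a high ribosomal percentage as its reason for removing clusters of the control set, and nuclei within all limits were Filtered only there. That count cannot be told apart from this removal and is given as a description. Against shallow Filtered nuclei alone the median term of the 10 mitochondrial genes was −0.55, and 0 of the 10 were called.

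Genes of mitochondria encoded in the nucleus were listed by role and compared in the same fits. In named nuclei the nuclear subunits of complexes I to V lay close between groups, at 0.136% and 0.128% of UMIs in controls against 0.128% and 0.113% with PP121 for the 37 subunits of complex I, and 0.0389% and 0.0324% against 0.0382% and 0.0303% for the 11 of complex IV. Neither list had a called gene in named nuclei without a block, where 0 of 24123 genes were called. In enteric neurons the median log2 fold changes were −0.18 for complex I, −0.29 for complex III, −0.29 for complex IV and −0.23 for complex V, against −1.06 for the 10 mitochondrial genes, which were chosen on this contrast, and 0.00 for all genes. Again no gene of these lists was called, where 0 of 21243 genes were. With no gene called at all, the absence of calls does not show that these lists were unchanged.

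Blocking on the replicate number left 1 degree of freedom for the residual, and 6 of 37 complex I subunits fell in neurons, 0 of 4 complex II, 2 of 9 complex III, 3 of 11 complex IV and 3 of 15 complex V subunits, where 6.86% of all genes fell. Among the 2 most abundant genes of each list, NDUFS1, an iron-sulphur subunit of complex I, fell (log2 −0.46 ± 0.09, adjusted p = 0.000794 with edgeR), as did NDUFA4 of complex IV (−0.58 ± 0.12, 0.00108) and ATP5MC2 of complex V (−0.35 ± 0.11, 0.0229). NDUFS4 (0.08 ± 0.10), SDHA (−0.29 ± 0.12), SDHC (−0.19 ± 0.11), UQCRC2 (−0.23 ± 0.11), UQCRB (−0.29 ± 0.12), COX7C (−0.29 ± 0.11) and ATP5MG (−0.25 ± 0.11) did not pass. In progenitor 2 nuclei the same block called 0 subunits lower and 1 higher over these 5 lists, where 4.38% of all genes were called higher.

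Regulators of the mitochondrial genome were tested in the same blocked fit of neurons, in which 6.86% of all genes fell and 7.97% rose. Without the block none was called, where 0% of all genes were. Of 16 genes of its transcription and copying, 2 fell in neurons with the block, among them SSBP1, which binds single-stranded mitochondrial DNA (−0.35 ± 0.10, adjusted p = 0.0174 with edgeR), while MTERF1 (−0.06 ± 0.09) did not pass. Of 18 tested genes of RNA processing and decay in mitochondria, 1 fell, LRPPRC (−0.37 ± 0.10, 0.0119), which keeps mitochondrial messengers stable together with SLIRP (0.05 ± 0.11). Of 9 regulators of biogenesis 2 rose and 1 fell, and NRF1 (0.19 ± 0.10) and YY1 (0.05 ± 0.10) did not pass. Of 15 tested stress response genes 3 fell, and the chaperones HSPD1 (−0.18 ± 0.09) and HSPE1 (−0.22 ± 0.12) did not pass.

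Transcripts that track cytoplasm or nucleus did not share 1 direction with the mitochondrial genes. With the block, 4 of 78 cytosolic ribosomal protein genes fell and none rose in neurons (RPL37A at −0.34 ± 0.10, while RPL3 at −0.19 ± 0.09 did not pass), 67 rose in progenitor 1 (2.90% of all genes rose) and 63 in progenitor 2 (4.38%), and 18 fell in Filtered nuclei (3.41% of all genes fell). None of these was called in any set without the block, where 0% of all genes were called. Among the nuclear noncoding RNAs of neurons, MALAT1 fell (−0.53 ± 0.08, adjusted p = 1.82e-05 with edgeR) and so did NEAT1 (−0.57 ± 0.09, 7.1e-05), with 3 of 8 falling and 2 rising, where 6.86% of all genes fell and 7.97% rose. Without the block the adjusted p was 0.531 for MALAT1 and 0.377 for NEAT1. The part of cytoplasmic or nuclear RNA content in the mitochondrial values was not tested.

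Over the 20 sums of 4 samples and 5 classes, the genes outside the mitochondrial genome whose log2 CPM followed the summed 10 genes most closely were TMEM175 (Pearson r = 0.73), AC006487.1 (0.73), RNF44 (0.72), PCDHB2 (0.72) and DDAH2 (0.71), among 11588 genes with a mean of at least 10 CPM. Without the unknown class r was 0.54 to 0.63. Sums of 1 sample share their library and its depth, and the 5 highest of many genes are a description. Within the set, MT-CO1 followed MT-ND3 (0.92), MT-ATP6 (0.90) and MT-CO3 (0.89) closely and MT-ND2 less (0.61), and it ran against MT-ND6 (−0.46).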

How the data were processed

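The authors prepared droplet libraries of nuclei (10x Genomics 3′ kit) and deposited 1 matrix of UMI counts and 1 table of annotations per sample. The submitters' processing notes name Cell Ranger, Seurat 4.0.4 and GRCh38, whereas the study's methods name kallisto and bustools, so which tool counted is not settled, and whether introns or strand were used is not given in the sources used here. Counts were whole, and the deposited total and percent of mitochondrial counts (13 features) were equal to those recomputed. The deposited percent of mitochondrial and ribosomal counts served only to describe nuclei. The study demultiplexed samples by hashtag with Seurat; how it treated doublets is not given in the sources used here, and none were called or removed here beyond its upper limits. Groups came from the labels, and a further deposited column of sample names that conflicts with them for the controls was not used.

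Counts were summed per sample and class and compared with edgeR 4.0.16 (quasi-likelihood, TMM, filterByExpr, Benjamini-Hochberg at 0.05 over all genes tested, two-sided), without a block for PP121 and with the sample as a block between classes. The day is shared by equal replicate numbers, and same-numbered samples deviated together from their group means across genes (correlation 0.697 in named nuclei, 0.452 to 0.608 in classes and Filtered nuclei), so the numbers pair the samples, and the blocked value is printed where it changes a call. Replicates differed beyond sampling noise (chi-square per degree of freedom 26.1 and 37.9). Each group holds 2 numbered replicates of 1 line, so p-values cover the spread between 2 of them. The PP121 fits without a block leave the pairing out. Alternatives were DESeq2 1.42.0, library size alone, other filters, thinning depths, and each sample left out. Leaving out the 1% richest nuclei was chosen after seeing the data. The 10 genes and all lists were chosen with earlier results of these data known. Genes were named by rule: the 13 protein genes, the 2 most abundant genes of each list, and the 5 most like the summed genes. Copies were aligned with BLAST+ 2.17.0 to GENCODE v29 transcripts. Scripts were tested on simulated data.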

Additional observations from a re-analysis of the deposited data

How the results depend on the processing

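The lower summed share with PP121 kept its direction in named nuclei, neurons, both progenitor classes and Filtered nuclei under every alternative run. In named nuclei its log2 ratio of −1.0 moved to −0.82 without the richest 1%, −0.78 in nuclei of 4000 to 10000 UMIs and −0.86 as a mean over nuclei, and in neurons to −0.78 without the richest 1%. With 1 sample left out it ranged from −1.07 to −0.94 in named nuclei, −1.30 to −0.91 in neurons, −0.66 to −0.52 in progenitor 1, −1.35 to −0.94 in progenitor 2 and −1.27 to −0.99 in Filtered nuclei. The difference in nuclei with a UMI was −7.88 points at 4000 UMIs and −10.5 unthinned. In mesenchymal nuclei that difference reversed from 1.79 points to −6.15 and −6.06.

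The 10 genes were chosen on the PP121 contrast, so the following counts for it are a description and nothing is read from them. Counts of the 10 genes called for PP121 (named nuclei, neurons, progenitor 1, progenitor 2, Filtered) were 0 without a block, 6, 10, 1, 10 and 9 with the replicate block, 2, 8, 0, 8 and 10 with the block and without the richest 1%, 3, 4, 0, 4 and 7 with DESeq2, and 0, 4, 0, 9 and 9 with no filter. Over all genes the block called 213, 3152, 593, 1267 and 1551, DESeq2 49, 87, 1, 96 and 136, and no filter 1, 69, 81, 768 and 877. With 1 sample left out they ranged from 0 to 0, 0 to 8, 0 to 2, 0 to 8 and 0 to 5, the calls appearing without PP121 replicate 1 (8 in neurons, 2 in progenitor 1, 8 in progenitor 2, 5 in Filtered) or replicate 2 (7, 0, 5 and 5). The blocked fit changed no call of the 10 genes over classes or between Filtered and named effects, and those counts ranged from 0 to 0 over classes and 0 to 1 for Filtered, where MT-CO3 was called only without control replicate 1 (−0.69, adjusted p = 0.0354 with edgeR).

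Against neurons, without a sample block 1, 0, 0 and 3 genes were lower in progenitor 1, progenitor 2, mesenchymal and unknown nuclei, and 1, 0, 0 and 5 without the richest 1%. With 1 sample left out the ranges were 1 to 6, 0 to 1, 0 to 5 and 4 to 6, and MT-ND2 in mesenchymal nuclei, at 0.14 on all samples, ranged from −0.77 (adjusted p = 0.0463 with edgeR, without PP121 replicate 2) to 0.50. The 10 genes higher in Filtered nuclei stayed at 10 in each such fit and were 0 without a sample block. Between replicate numbers, calls in named nuclei (1) became 0 with DESeq2 or no treatment term and 2 with library size alone, no filter or without the richest 1%. In neurons (6) they became 0, 0, 3 and 2 with DESeq2, no treatment term, library size alone and without the richest 1%. The causes were not tested. A filter of 10 counts in every sum left none of the 10 genes in the class comparison, DESeq2's joint test over classes was not run, and leaving out a sample between replicate numbers left no residual degrees of freedom. Precision is limited by 2 samples a group and by 1026 (MT-ND3) to 5274 (MT-CO1) UMIs per gene in all named nuclei.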

Other observations

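Among enteric neurons, the nuclei that the authors annotated as nitrergic held the 10 genes at 0.0279% and 0.0191% of UMIs in controls (449 and 230 nuclei) and at 0.0104% and 0.0273% with PP121 (358 and 91), so the groups overlapped, whereas other neurons held 0.0363% and 0.0361% against 0.0159% and 0.0188% and did not. The overlap rests on PP121 replicate 2 alone, whose 91 nitrergic nuclei held 235 UMIs of the 10 genes. Their spread over these nuclei was not examined, so nothing is read from the overlap. The difference between nitrergic and other neurons was not tested. A further 16 and 16 nuclei of the control neuron class carry the transmitter label Non-Neuronal, with shares of 0.0886% and 0.251%, against 143 and 61 with PP121 at 0.0138% and 0.0133%. The control shares rest on 136 and 505 UMIs of the 10 genes. How these were spread over so few nuclei was not examined, so nothing is read from the gap.

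Epithelial nuclei held 92 and 34 UMIs of the 10 genes in controls (25 and 21 nuclei, 0.0458% and 0.0173%) and 2 and 36 with PP121 (9 and 37 nuclei, 0.00309% and 0.0120%). Filtered nuclei above the study's upper limits (274, 145, 160 and 113) had shares of 0.0214% and 0.0511% in controls and 0.0119% and 0.0122% with PP121, both lower with PP121, as in named nuclei. The richest 1% held 9.07% of these UMIs in control replicate 1 (3 nuclei), 62.3% in control replicate 2 (2 of 145 nuclei, 2003 of 3216 UMIs), and 14.8% and 15.9% with PP121 (2 nuclei each).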
